A study of Mus musculus with 12 samples.

Results

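The mitochondrial ribosomal protein genes were taken as the protein-coding genes whose symbol is Mrpl or Mrps followed by a number, which gave 78 of the 55901 genes in the table. Of these, 49 carried an Mrpl symbol (large subunit) and 29 an Mrps symbol (small subunit). The cells were primary cortical neurons from newborn C57BL/6J mice, kept in culture with arabinosylcytosine, an inhibitor of DNA synthesis, given early to every culture to hold back glia. Poly-A RNA was sequenced from 3 groups of 4 libraries. The Control libraries carried no other treatment in their labels, the Trauma libraries came from neurons scratched with a needle and left for 24 h, and the Tra_TGF libraries came from neurons that were scratched and given TGF-β1 at 10 ng/mL for 24 h. Nothing in the labels says that the libraries of a group came from separate cultures or litters, so the p-values below measure the spread between these libraries only. There was no group with TGF-β1 and no scratch.

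Mitochondria make the few proteins encoded in their own genome on ribosomes of their own. The ribosomal RNAs of these particles, mt-Rnr1 and mt-Rnr2, are transcribed in the organelle, whereas every protein of the particle is encoded in the nucleus, made in the cytosol and imported. The particle is protein-rich compared with its bacterial relative, and many of its proteins have no bacterial homologue. Its products are core subunits of the respiratory chain and the ATP synthase, on which neurons depend heavily.

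The libraries held 15052486 to 17381671 reads assigned to genes. All the neuronal marker genes on the list used were detected, with a summed level of 1721 ± 18.5 FPKM in Control, 1553 ± 44.4 in Trauma and 1492 ± 18.1 in Tra_TGF (SD, n = 4 each), where FPKM is the number of sequenced fragments of a gene scaled by its length and by the depth of the library. In Tra_TGF against Trauma the single neuronal markers went both ways. Of the 10, 4 had a negative log2 fold change, and the median was 0.05. At an adjusted p of at most 0.05 (limma), 2 were higher and 2 lower, beside 4.64% and 7.63% of all tested genes. Glial markers were also present. The 8 astrocyte markers summed to 181 to 210 FPKM in Control, 238 to 299 in Trauma and 253 to 270 in Tra_TGF, and the 8 microglial markers to 15.3 to 18.9, 23.5 to 31.5 and 20.4 to 23.2. The 8 oligodendrocyte lineage markers summed to 46.1 to 48.75 FPKM in Control, 57.4 to 64.7 in Trauma and 57.1 to 63.6 in Tra_TGF. The 6 markers of dividing cells summed to 17.4 to 18.8, 23.85 to 27.9 and 22.1 to 23.9 FPKM in the same order. None of the markers was at 0 in every library. Reads from the mitochondrial genome took 2.17% to 2.30% of the total in Trauma, 2.69% to 3.23% in Tra_TGF and 2.13% to 2.36% in Control, except for Control replicate 1 with 2.97%. In bulk RNA, fewer cells of a type and less RNA per cell cannot be told apart, and the part of the cell mixture in the results below was not tested.

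Of the 78 members, 76 had a mean of at least 0.5 FPKM and were tested, 48 of the large and 28 of the small subunit. The median member of the large subunit stood at a mean level of 12.1 FPKM and that of the small subunit at 9.15 FPKM, both above the 5.15 FPKM of the median tested gene and below the 79.7 FPKM of the median cytosolic ribosomal protein gene. The levels spanned 1.65 to 52.0 FPKM in the large and 1.53 to 33.2 FPKM in the small subunit. The most abundant large subunit transcripts by mean FPKM were Mrpl34 (52.0), Mrpl12 (38.4) and Mrpl28 (36.5), and the least abundant were Mrpl33 (1.65), Mrpl1 (2.95) and Mrpl48 (2.95). In the small subunit, Mrps21 (33.2), Mrps24 (29.2) and Mrps12 (24.5) led, and Mrps23 (1.53), Mrps30 (2.34) and Mrps35 (2.59) were lowest. Although the proteins are assembled into one particle, 8 large and 6 small subunit members had a mean under 5 FPKM, and 6 and 3 had 20 FPKM or more. These levels depend on the length of the gene model, by which FPKM divides. Mrpl34 (607 bases) held 459 to 583 reads in the Control libraries, and Mrpl48 (8152 bases) held 359 to 473. The order by FPKM is therefore not an order by reads, and the part of gene model length in it was not tested.

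A pair of members fell below the filter. Mrpl53 was listed at 0 in all 12 libraries, and 88.0% of its exon bases in the reference annotation (GENCODE M21) also belong to Gm42688 on the same strand. Mrps10 was listed at 0 in 10 libraries, at 0.00698 FPKM in Trauma replicate 4 and at 0.00796 FPKM in Tra_TGF replicate 2, and a processed pseudogene matches a transcript of it at 97.9% identity over 573 bases. Reads shared between overlapping genes or near-identical copies may not be assigned to either, so these values may not measure expression, which was not tested. In all, 18 members had a stretch of at least 150 bases with at least 97% identity to a transcript elsewhere in the genome.

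After the scratch alone, no member passed the test (limma). In Trauma against Control, 0 of 76 members passed an adjusted p of 0.05 in either direction, beside 3.5% of all tested genes that were higher and 2.32% that were lower. With voom on the recovered reads the count was also 0. At an unadjusted p of at most 0.05, 7 members were higher and 2 lower, which is 9.21% and 2.63% of the members beside 10.1% and 9.3% of all genes. The median log2 fold change was 0.05 over the large and 0.03 over the small subunit, beside -0.002 over all genes tested, and single members lay between -0.24 and 0.29.

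The 4 libraries of the 2 groups did not overlap for 1 member in each direction, beside 6.87% of all genes that were apart and higher and 5.93% that were apart and lower. Mrps6, a small subunit protein with a bacterial homologue that is named here after its values were seen, had 13.4, 12.5, 13.0 and 13.5 FPKM in Control replicates 1 to 4 and 13.7, 16.0, 15.2 and 14.9 in Trauma (log2 fold change 0.19 ± 0.05 SE, adjusted p = 0.0674), and it passed when protein-coding genes alone were tested. Mrps6 shares 19.9% of its exon bases with the protein-coding gene Gm49711 on the same strand. Mrpl3, which lies in the core of the large subunit near the peptidyl transferase region, had 10.47, 10.66, 10.52 and 11.03 FPKM in Control and 10.0, 9.85, 9.89 and 9.32 in Trauma, a log2 fold change of -0.13 ± 0.04 (SE, adjusted p = 0.111). Without Trauma replicate 1, 2 small subunit members passed. The mitochondrial rRNA of the small subunit, mt-Rnr1, passed the test (limma). Its highest Control value was that of replicate 1, the library with 2.97% mitochondrial reads, and the part of that share was not tested. The poly-A-selected level of mt-Rnr1 was 730, 606, 562 and 625 FPKM in Control and 496, 524, 543 and 500 in Trauma. Every Trauma library was below every Control library, with a log2 fold change of -0.29 ± 0.07 (SE, adjusted p = 0.0357). The large subunit rRNA, mt-Rnr2, stood at 684 ± 121 FPKM in Control and 574 ± 23.0 in Trauma (SD, n = 4 each), a difference that did not pass (adjusted p = 0.236).

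With TGF-β1 on the scratched neurons, transcripts of both subunits were lower. In Tra_TGF against Trauma, 17 of the 76 members fell and 1 rose at an adjusted p of at most 0.05, or 22.4% and 1.32% of the members, beside 7.63% and 4.64% of all tested genes. The large subunit held 11 lower members of 48 (22.9%) and 0 higher, and the small subunit 6 lower of 28 (21.4%) and 1 higher, Mrps18b. The 2 groups of libraries did not overlap for 18 members that were lower and 3 that were higher, or 23.7% and 3.95%, beside 11.8% and 10.6% of all genes. The median log2 fold change was -0.14 over the large and -0.16 over the small subunit, beside 0.01 over all genes, and 61 of the 76 estimates were negative. At an unadjusted p of at most 0.05, 34 members were lower and 5 higher, beside 16% and 13.4% of all genes. The changes were small for most members, and the lower members that passed fell by 0.20 to 0.77 on the log2 scale. The subunits were also counted by place in the particle, with Mrps18a and Mrps30 in the large subunit and Mrps36 left out. Then 12 of 50 large subunit members were lower and 0 higher, and 5 of 25 small subunit members lower and 1 higher. The median log2 fold change was then -0.14 in each subunit. The difference between the subunits was not tested. Without Tra_TGF replicate 2, Tra_TGF replicate 4 or Trauma replicate 2, the small subunit count of 7 by symbol went to 3, 4 and 4, with Mrps18b among the calls lost each time.

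**Figure D1:**
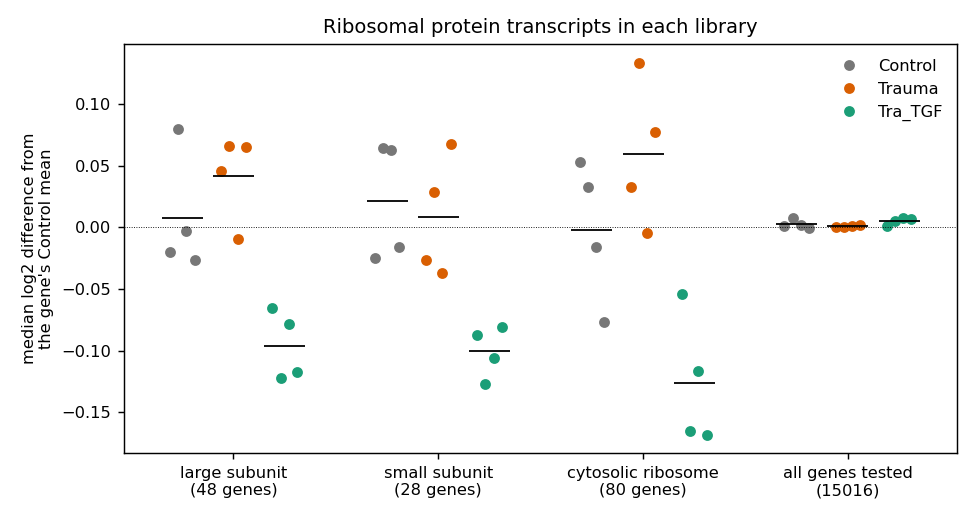
Each point is 1 of the 12 libraries, and the y axis is the median over a group of genes of the log2 difference from the gene's own Control mean, with black lines at the mean of 4 libraries. The 4 Tra_TGF libraries lie between -0.12 and -0.07 for the large and between -0.13 and -0.08 for the small subunit, below every Control and Trauma library, while the median of all genes stays near 0.

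The shift was seen in each Tra_TGF library. Relative to the Control mean of each gene, the median member stood between -0.12 and -0.07 on the log2 scale in the 4 Tra_TGF libraries, between -0.02 and 0.07 in the 4 Trauma libraries and between -0.02 and 0.07 in the 4 Control libraries. The summed level of the tested members was 842 to 893 FPKM in Tra_TGF, 954 to 1032 in Trauma and 920 to 1015 in Control. The members together held 0.188% to 0.197% of all reads in Tra_TGF and 0.207% to 0.222% in Trauma. Cytosolic ribosomal protein genes, which encode the separate ribosome of the cytosol, moved the same way: 34 of 80 were lower and 0 higher, with a median log2 fold change of -0.20, and at an unadjusted p of at most 0.05 41 were lower and 1 higher, with the shares of all genes as given above for both thresholds.

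The largest fall was that of Mrpl14, a conserved protein on the face of the large subunit that meets the small subunit (chromosome 17, 45686322 to 45698495, GRCm38). It had 17.3, 18.9, 14.2 and 18.2 FPKM in Trauma replicates 1 to 4 and 12.5, 9.76, 7.65 and 10.6 in Tra_TGF, beside 14.4, 17.3, 17.4 and 13.5 in Control. Every Tra_TGF library lay below all 8 others, and the level in Tra_TGF was 0.587 of that in Trauma (log2 fold change -0.77 ± 0.14 SE, adjusted p = 0.00955). These values rest on 117 to 180 reads per Tra_TGF library, and 11.2% of the gene's exon bases overlap Tmem63b on the opposite strand. Mrpl2, a core protein close to the peptidyl transferase centre that also lies on chromosome 17 (46646229 to 46650139), had 22.5, 20.9, 17.7 and 22.4 FPKM in Trauma and 15.8, 14.0, 13.8 and 14.8 in Tra_TGF. The groups did not overlap, and the log2 fold change was -0.51 ± 0.09 (SE, adjusted p = 0.00856). Mrpl57, a protein without a bacterial homologue (chromosome 14, 57826234 to 57829296), had 10.3, 10.7, 9.37 and 11.1 FPKM in Trauma and 8.62, 6.79, 7.06 and 6.68 in Tra_TGF. Its log2 fold change was -0.51 ± 0.10 (SE, adjusted p = 0.0111), again with no overlap between the groups.

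Mrpl34, the member with the highest mean FPKM and the shortest gene model (607 bases), had 55.0, 61.9, 57.7 and 62.7 FPKM in Trauma and 44.4, 42.3, 47.8 and 41.4 in Tra_TGF. The lowest Trauma library was above the highest Tra_TGF library, with a log2 fold change of -0.43 ± 0.06 (SE, adjusted p = 0.00458). Mrpl27, whose bacterial homologue reaches towards the peptidyl transferase centre, had 19.2, 19.7, 20.2 and 22.9 FPKM in Trauma and 14.6, 15.5, 16.0 and 17.2 in Tra_TGF (log2 fold change -0.37 ± 0.09 SE, adjusted p = 0.0195), with a processed pseudogene that matches 447 bases at 98.9%. Mrpl20, whose bacterial homologue acts early in large subunit assembly, had 27.9, 32.8, 28.4 and 30.6 FPKM in Trauma and 22.9, 23.2, 23.3 and 23.6 in Tra_TGF. The 4 Tra_TGF values of Mrpl20 were within 1 FPKM of each other, and the log2 fold change was -0.36 ± 0.06 (SE, adjusted p = 0.00514). Mrpl28 and Mrpl41 fell by 0.29 and 0.28 on the log2 scale, from means of 38.6 to 31.5 and of 34.4 to 28.4 FPKM (adjusted p = 0.0174 and 0.0115). The other 3 large subunit members that passed, named after their values were seen, were Mrpl40 (-0.24), Mrpl49 (-0.22) and Mrpl9 (-0.20, log2 fold changes). The calls for Mrpl40 and Mrpl9 were kept under 8 and 9 of 25 alternatives.

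In the small subunit, Mrps26, a protein without a bacterial homologue (chromosome 2, 130563742 to 130568695), had 10.5, 11.9, 11.9 and 12.1 FPKM in Trauma and 8.61, 6.85, 8.43 and 7.65 in Tra_TGF. No Tra_TGF library reached the lowest Trauma library, and the log2 fold change was -0.55 ± 0.10 (SE, adjusted p = 0.0102). Mrps28 (chromosome 3, 8802146 to 8923918) had 11.7, 16.3, 13.2 and 12.6 FPKM in Trauma and 9.75, 8.95, 11.1 and 8.80 in Tra_TGF, with a log2 fold change of -0.47 ± 0.11 (SE, adjusted p = 0.0213) that did not pass after GC correction. Mrps12, part of the decoding centre, where the codon is read, had 24.9, 31.9, 25.8 and 27.8 FPKM in Trauma and 21.84, 18.25, 20.47 and 20.30 in Tra_TGF. For Mrps12 the log2 fold change was -0.44 ± 0.10 (SE, adjusted p = 0.0164) and the groups did not overlap.

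Mrps24, which takes the place of bacterial protein S3 at the mRNA entry, had 33.3, 31.7, 30.1 and 32.9 FPKM in Trauma and 26.1, 25.3, 22.5 and 22.4 in Tra_TGF (log2 fold change -0.41 ± 0.08 SE, adjusted p = 0.00950). It shares 15.4% of its exon bases with Urgcp on the same strand. Mrps25 had 3.59, 3.34, 3.42 and 3.75 FPKM in Trauma and 2.983, 2.524, 2.634 and 2.601 in Tra_TGF (log2 fold change -0.38 ± 0.08 SE, adjusted p = 0.0128). Both fell in every library of the group, but 69.8% of the Mrps25 exon bases overlap Nr2c2 on the opposite strand and its transcript has a pseudogene copy at 98.0% over 2070 bases. Whether the counting used strand is not given in the sources used here, so the value of Mrps25 is uncertain.

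Of the 3 paralogs of bacterial protein S18, 1 was lower, 1 was higher and 1 did not pass. Mrps18a, whose protein sits in the large subunit of the mammalian particle, fell by 0.29 on the log2 scale, from 11.6 ± 0.51 FPKM in Trauma to 9.46 ± 0.76 in Tra_TGF (SD, n = 4 each, adjusted p = 0.0275), a call that was lost under 9 of 25 alternatives, GC correction among them. Mrps18b, which, like Mrps18c, sits in the small subunit, was the member that rose. It had 6.34, 6.15, 6.77 and 7.24 FPKM in Trauma and 7.75, 8.28, 7.67 and 8.10 in Tra_TGF, beside 7.65, 6.57, 7.06 and 7.33 in Control. All 4 Tra_TGF libraries were above every Trauma and Control library, with a log2 fold change over Trauma of 0.26 ± 0.06 (SE, adjusted p = 0.0220). An antisense transcript covers 30.5% of the Mrps18b exon bases and a processed pseudogene matches 417 bases at 99.8%, so this value too is uncertain, and with voom on the recovered reads no member was higher. Mrps18c had 7.59 ± 1.29 FPKM in Trauma and 6.97 ± 1.55 in Tra_TGF (SD, n = 4 each), with overlapping libraries and a 95% interval of -0.49 to 0.23 on the log2 scale. The differences between the paralogs were not tested.

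**Figure D2:**
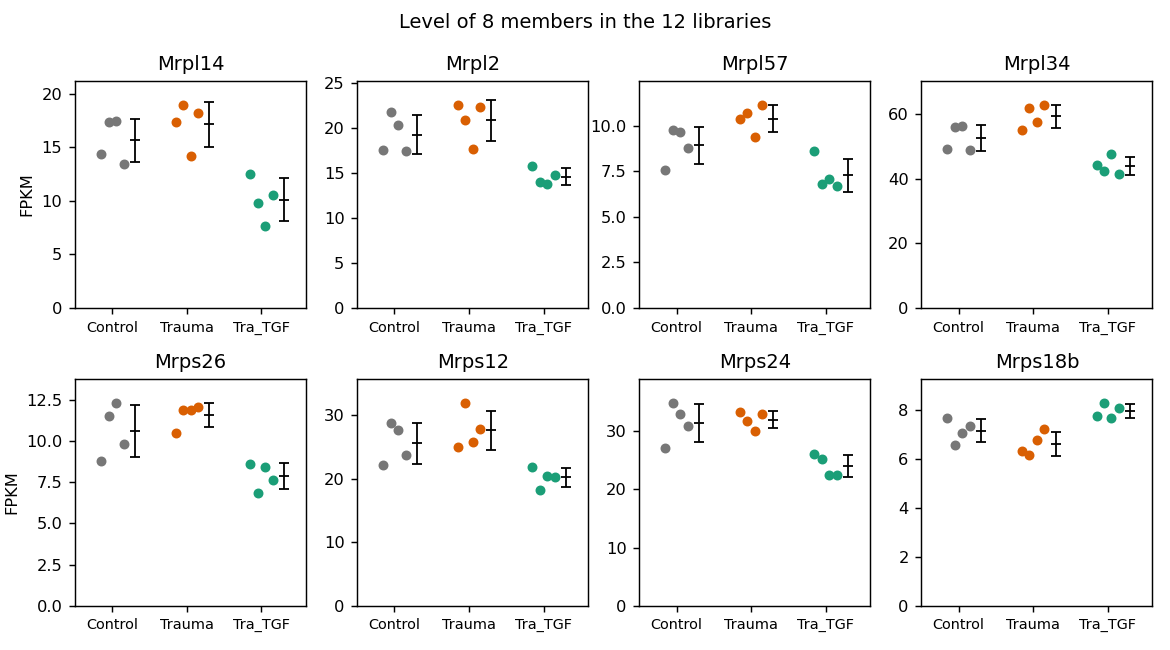
FPKM on the y axis, from 0, for 8 members in Control, Trauma and Tra_TGF, with 1 point per library and the mean ± SD of 4 libraries beside them in black. In the first 7 panels the Tra_TGF points lie below all Trauma points, and in the panel of Mrps18b they lie above, from 7.67 to 8.28 FPKM.

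The following 5 large subunit members, listed for a known role whatever their values, did not pass in this comparison (limma). Mrpl12, the stalk protein that is also known to bind the mitochondrial RNA polymerase, had 39.7 ± 4.27 FPKM in Trauma and 36.6 ± 2.22 in Tra_TGF (SD, n = 4 each), with a 95% interval of the log2 fold change of -0.31 to 0.08. Mrpl45, which holds the tunnel exit against the inner membrane, had 12.7 ± 0.47 and 13.4 ± 0.79 FPKM (interval -0.06 to 0.21). Mrpl58, which can release peptides from stalled ribosomes, had 8.28 ± 0.16 and 8.21 ± 0.40 FPKM (interval -0.14 to 0.11), so a change of the size seen for Mrpl20 lies outside its interval. Mrpl3 was higher in all 4 Tra_TGF than in all 4 Trauma libraries (log2 fold change 0.12 ± 0.04 SE, interval 0.03 to 0.21), but did not pass after adjustment (adjusted p = 0.0866). Mrpl44, a protein with an RNase III fold, had 9.59 ± 0.72 and 10.0 ± 0.61 FPKM.

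Among proteins tied to small subunit assembly, none passed in Tra_TGF against Trauma (limma). Mrps7 had 18.8 ± 1.52 FPKM in Trauma and 16.2 ± 1.21 in Tra_TGF (adjusted p = 0.0859), and Mrps16 had 6.38 ± 0.74 and 5.42 ± 0.26 (adjusted p = 0.137), with no overlap between the libraries for Mrps16. Mrps34 had 11.56, 12.14, 9.76 and 11.01 FPKM in Trauma and 10.8, 6.23, 8.90 and 5.49 in Tra_TGF. Its log2 fold change of -0.54 ± 0.18 (SE) had an adjusted p of 0.0675, the Tra_TGF libraries were widely spread, and 77.8% of its exon bases overlap other genes, mainly Mapk8ip3. Mrps22 had 5.38 ± 0.38 and 5.68 ± 0.45 FPKM. Mrps30, which lies in the large subunit despite its name, had 2.14 ± 0.20 FPKM in Trauma and 2.58 ± 0.18 in Tra_TGF, with no overlap and a log2 fold change of 0.26 ± 0.12 (SE, adjusted p = 0.162). Mrps36, which belongs to the 2-oxoglutarate dehydrogenase complex rather than to the ribosome, had 14.7 ± 1.70 and 12.4 ± 0.97 FPKM (adjusted p = 0.192).

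Mrps23 was the member with the widest spread. It had 0.249, 0.599, 1.50 and 0.539 FPKM in Control, 0.584, 0.551, 2.26 and 0.434 in Trauma, and 1.60, 0.907, 8.595 and 0.562 in Tra_TGF. The third replicate was highest in each group, and the log2 fold change in Tra_TGF against Trauma of 1.04 ± 0.75 (SE) did not pass (adjusted p = 0.400). Its libraries held 6 to 216 reads on the gene. Mrpl33, Mrpl1, Mrpl48 and Mrps35, also among the members lowest in FPKM, had log2 fold changes of -0.39, 0.16, -0.12 and -0.03 (limma, adjusted p = 0.0943, 0.276, 0.459 and 0.891). Mrps21, the highest in FPKM of the small subunit, had -0.27 (adjusted p = 0.159).

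**Figure D3:**
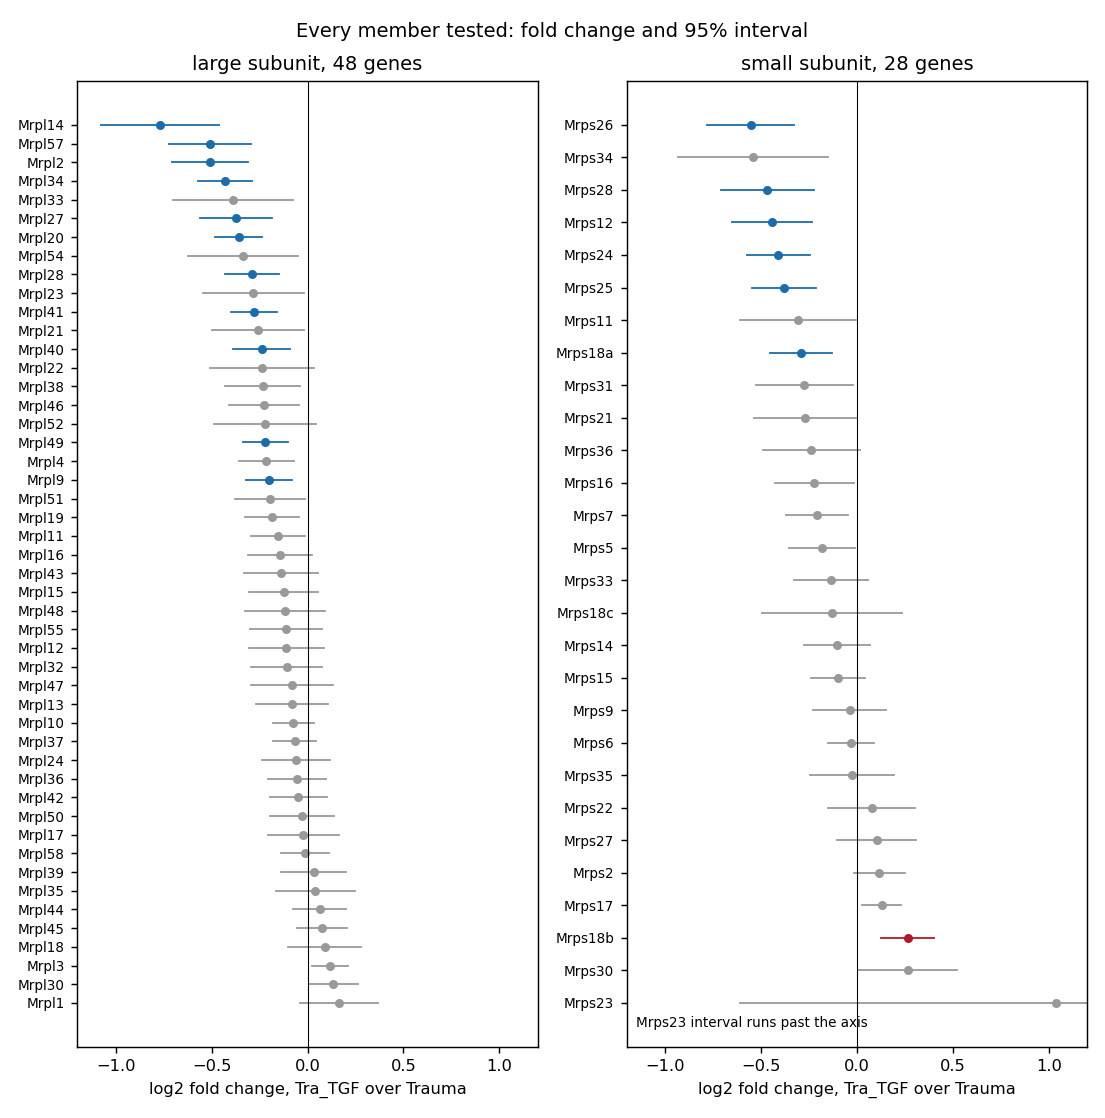
Log2 fold change of Tra_TGF over Trauma (x axis) with its 95% interval for each of the 48 large and 28 small subunit members tested, sorted by the estimate. Blue marks members lower and red members higher at an adjusted p of at most 0.05, and the interval of Mrps23 runs past the axis. The 17 blue members lie among grey ones, some with wider and some with narrower intervals, and Mrps18b is the 1 red member.

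Against Control, some members of both subunits were also lower, and these counts rest on few genes. In Tra_TGF against Control, 11 of 76 fell and 2 rose, or 14.5% and 2.63%, beside 9.46% and 6.85% of all genes. The large subunit had 7 lower of 48 (14.6%) and 2 higher (4.17%), and the small subunit 4 lower of 28 (14.3%) and 0 higher. When only these groups were fitted, 2 small subunit members passed. The libraries did not overlap for 12 members that were lower and 3 that were higher (15.8% and 3.95%, beside 9.38% and 8.64% of all genes). Over the small subunit, 2 members were higher at an unadjusted p of at most 0.05, and with voom on the recovered reads 0 members were higher in either subunit. After GC correction of the libraries, 17 members were lower and 1 higher, beside 9.1% and 4.76% of all genes, so the order of the counts in the comparisons with Control and with Trauma (13 lower after the same correction) turned, and the difference between them was not tested. At an unadjusted p of at most 0.05, 28 members were lower and 5 higher, beside 16.8% and 14.3% of all genes. The median log2 fold change was -0.13 over the large and -0.14 over the small subunit. This comparison and that against Trauma share the Tra_TGF libraries. The counts depended on single Control libraries: without Control replicate 1, which stood apart in its mitochondrial reads, 14 large and 8 small subunit members passed, without Control replicate 2 5 and 2, and the small subunit count was also 2 without Control replicate 3, Tra_TGF replicate 2 or Tra_TGF replicate 4.

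The lower large subunit members were Mrpl14 (-0.64), Mrpl2 (-0.39), Mrpl41 (-0.36), Mrpl28 (-0.32), Mrpl20 (-0.27), Mrpl34 (-0.26) and Mrpl4 (-0.24), and the lower small subunit members Mrps26 (-0.42), Mrps24 (-0.38), Mrps25 (-0.36) and Mrps12 (-0.33), all as log2 fold changes. Of 25 alternatives, Mrps12 lost its call under 12, Mrpl4 under 11, and Mrps26 and Mrpl34 under 5 each. Mrpl41, a protein without a bacterial homologue, had 34.2, 38.5, 37.0 and 36.4 FPKM in Control and 27.8, 31.3, 28.5 and 26.0 in Tra_TGF. All 4 Tra_TGF libraries were below the Control libraries, with an adjusted p of 0.00144, although a processed pseudogene matches 372 bases of the transcript at 97.8%. Mrpl28 had 38.5, 41.2, 42.7 and 35.2 FPKM in Control and 31.5, 31.9, 32.3 and 30.2 in Tra_TGF (adjusted p = 0.00735). Mrpl4, which lines the exit tunnel, had 14.8, 18.3, 17.3 and 17.7 FPKM in Control and 14.1, 13.4, 15.5 and 14.6 in Tra_TGF, with overlapping libraries (adjusted p = 0.0299). The 2 members that rose were Mrpl44, from 8.94, 8.73, 8.12 and 8.25 FPKM in Control to 9.77, 9.39, 10.0 and 10.8 in Tra_TGF (log2 fold change 0.23 ± 0.06 SE, adjusted p = 0.0280), and Mrpl30, from 14.8, 12.8, 13.7 and 13.6 to 17.1, 14.4, 15.2 and 15.7 (0.18 ± 0.06 SE, adjusted p = 0.0485). For Mrpl44 the groups did not overlap, and for Mrpl30 they did. The calls were lost under 9 and 14 of 25 alternatives, for Mrpl30 also with the FPKM as deposited and with GC correction.

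The members differed among themselves in ways that went with gene length and GC content. Of the 26 shortest members tested (607 to 1667 bases), 10 were lower in Tra_TGF than in Trauma, with a median log2 fold change of -0.24, while 3 of the 25 longest (3332 to 8631 bases) were lower, with a median of -0.08. All genes in those length ranges were lower in 13.6% and 6.03% of cases, with medians of -0.09 and 0.01. Of the 25 members richest in GC (52.5% to 60.4%), 9 were lower and 1 higher, with a median of -0.27, and of the 26 poorest in GC (38.6% to 46.9%) 2 were lower, with a median of -0.09. All genes in those GC ranges were lower in 13.8% and 2.1% of cases, with medians of -0.10 and 0.10. Over the 76 members, the rank correlation of the log2 fold change was -0.45 with GC content, 0.36 with length and -0.34 with the mean level, and over all genes tested -0.47 with GC content, 0.22 with length and -0.13 with level. These points share the same libraries and are given as a description only.

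**Figure D4:**
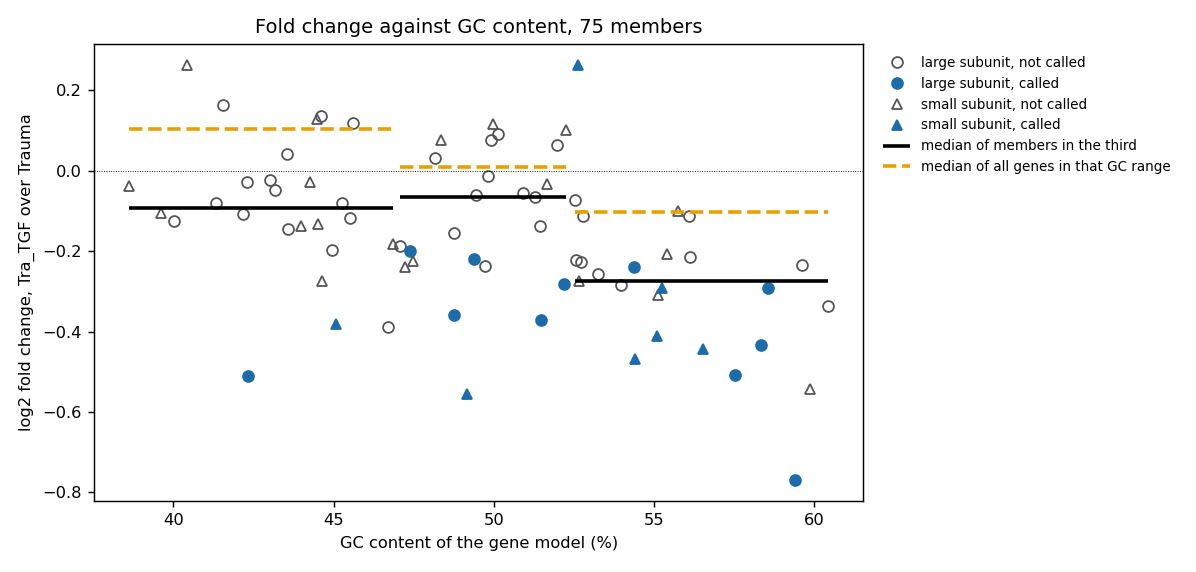
Log2 fold change of Tra_TGF over Trauma (y axis) against GC content (x axis) for 75 members, without Mrps23. Mrps23 is not plotted but counts in the median of the middle GC class. The GC content is that of the longest annotated transcript of each gene, although the axis names the gene model. Filled symbols passed the threshold, black lines give the median of the members in each of 3 GC classes (-0.09, -0.07 and -0.27) and dashed lines the median of all genes in the same GC range (0.10, 0.01 and -0.10). The members' median lies below that of all genes in each class.

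After a correction of the libraries for the GC content of the genes, 13 members were lower and 1 higher in Tra_TGF against Trauma (9 large and 4 small subunit members lower), or 17.1% and 1.32%, beside 3.85% and 1.75% of all genes. The median log2 fold change after the correction was -0.15 over the large and -0.21 over the small subunit. The 4 members that no longer passed were Mrpl28 (from -0.29 to -0.14 on the log2 scale, adjusted p = 0.228), Mrpl40 (to -0.15, adjusted p = 0.207), Mrps18a (to -0.19, adjusted p = 0.0656) and Mrps28 (to -0.38, adjusted p = 0.0599), whereas Mrpl57 went from -0.51 to -0.62 and Mrps18b from 0.26 to 0.32. Of 45 members with a bacterial homologue, 10 were lower and 0 higher before the GC correction (median log2 fold change -0.14) and 8 were lower and 0 higher after it (-0.20). Of 30 classed as mitochondria-specific, 7 were lower and 1 higher before it (-0.14) and 5 and 1 after it (-0.15). This class held Mrps18a and Mrps18b, although both are paralogs of a bacterial protein, and Mrps18b was its higher member. Beside the counts before and after the correction stand the 7.63% and 3.85% of all genes that were lower, and the difference between the classes was not tested.

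The genes lie on 17 chromosomes, with 11 on chromosome 11, 8 on chromosome 17 and 7 on chromosome 6. Many have a protein-coding neighbour that starts within 1000 bases on the other strand and points away: 18 of 78 (23.1%), beside 6.79% of all protein-coding genes of the annotation. In Tra_TGF against Trauma, 6 of these 18 members were lower and 1 higher (limma). Of their 18 neighbours, 0 passed, beside 7.63% of all tested genes that were lower and 4.64% that were higher. At an unadjusted p of at most 0.05, 2 neighbours passed, beside 16% and 13.4% of all genes, and with voom 1 passed. Whether the neighbours differed from all genes was not tested. Mrpl57 fell by 0.51 and its neighbour Ska3, 49 bases away, had a log2 fold change of 0.28 (adjusted p = 0.475). Mrps12 fell by 0.44 and Sars2, 172 bases away, which encodes the mitochondrial seryl-tRNA synthetase, had -0.32 (adjusted p = 0.156). The differences between neighbours were not tested.

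Promoter windows of 250 bases before to 50 bases after the start were taken from RefSeq (GRCm38.p6) for 69 of the 78 genes, 75 windows in all. The letters CCGGAAG, a core of ETS factor sites, were found on either strand in 34.7% of them, beside 8.86% of all 32851 windows. GCGCATGC, the core of sites for NRF1, a factor known for nuclear genes of mitochondria, was in 10.7% beside 2.71%, and AAGATGG, a core of YY1 sites, in 17.3% beside 6.34%. GGGCGG (SP1) was in 52% beside 35.7%, CCAAT (NFY) in 40% beside 37.4% and TATAAA in 6.67% beside 13.6%. Of the members lower in Tra_TGF than in Trauma, 16 had a window and 6 of them held the ETS letters, beside 19 of the 51 other tested members. The NRF1 letters were in 1 of the 16 and 7 of the 51. The windows of Mrpl14 and Mrpl2, both on chromosome 17 and both lower, of Mrps26, the small subunit gene with the largest fall, and of Mrps18b, the gene that rose, are shown to set these letters beside the changes. All read 5′ to 3′ along the gene, with capitals for every match to the 6 motifs on either strand. For Mrpl14 (chr17:45686099-45686398, plus strand) the capitals are SP1 letters only, and for Mrpl2 (chr17:46645971-46646270, plus strand, the first of 3 windows listed) they are SP1 and NFY letters. For Mrps26 (chr2:130563507-130563806, plus strand) they are NFY, SP1 and ETS letters in that order, and for Mrps18b (chr17:35916391-35916690, minus strand) NRF1, SP1, SP1, NRF1 and ETS letters.
Mrpl14: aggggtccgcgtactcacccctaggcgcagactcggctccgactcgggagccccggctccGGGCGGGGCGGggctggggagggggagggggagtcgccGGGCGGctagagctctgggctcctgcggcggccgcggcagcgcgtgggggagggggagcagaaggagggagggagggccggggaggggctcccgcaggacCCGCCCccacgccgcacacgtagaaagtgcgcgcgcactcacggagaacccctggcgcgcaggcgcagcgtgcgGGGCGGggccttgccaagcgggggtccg
Mrpl2: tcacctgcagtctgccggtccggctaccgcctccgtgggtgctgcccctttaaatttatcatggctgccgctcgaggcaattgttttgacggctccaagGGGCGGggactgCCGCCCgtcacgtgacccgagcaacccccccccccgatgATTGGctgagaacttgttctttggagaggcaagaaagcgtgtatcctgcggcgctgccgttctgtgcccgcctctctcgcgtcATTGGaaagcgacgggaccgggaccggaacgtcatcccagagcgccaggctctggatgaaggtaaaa
Mrps26: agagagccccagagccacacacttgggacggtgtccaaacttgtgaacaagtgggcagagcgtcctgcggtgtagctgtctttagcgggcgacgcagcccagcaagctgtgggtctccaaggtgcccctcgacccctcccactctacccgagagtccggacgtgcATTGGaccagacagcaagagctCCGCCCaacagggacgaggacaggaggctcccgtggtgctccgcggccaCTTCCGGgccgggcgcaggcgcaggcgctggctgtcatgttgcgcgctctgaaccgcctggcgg
Mrps18b: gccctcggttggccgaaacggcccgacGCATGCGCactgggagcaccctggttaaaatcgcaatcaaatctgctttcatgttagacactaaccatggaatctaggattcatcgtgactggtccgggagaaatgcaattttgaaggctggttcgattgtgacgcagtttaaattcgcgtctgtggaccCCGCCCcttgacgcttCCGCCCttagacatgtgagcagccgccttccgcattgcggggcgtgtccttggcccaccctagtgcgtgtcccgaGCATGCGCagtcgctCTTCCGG

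Few of the other genes of mitochondrial translation passed the test. Of 5 proteins of the particle that carry other symbols, Gadd45gip1 fell in Tra_TGF against Trauma, from 7.96, 8.57, 6.92 and 7.74 to 5.15, 4.26, 5.58 and 4.20 FPKM (log2 fold change -0.70 ± 0.12 SE, adjusted p = 0.00790), and Dap3, Ptcd3, Chchd1 and Aurkaip1 had log2 fold changes of -0.05, 0.10, -0.18 and -0.19 that did not pass. Of 28 tested genes for the assembly of the particle, 2 rose and 2 fell, with a median of -0.03, beside 4.64% and 7.63% of all genes. After GC correction 0 rose and 2 fell, so neither rise held, and after length correction 1 rose and 1 fell. Mterf3, which acts on mitochondrial transcription and ribosome assembly, rose by 0.34 ± 0.09 (log2, SE, adjusted p = 0.0267) and the protease gene Yme1l1 by 0.20 ± 0.05 (adjusted p = 0.0259). Afg3l2, whose protease matures a large subunit protein, fell by 0.20 ± 0.04 (adjusted p = 0.0138) and C1qbp by 0.18 ± 0.05 (adjusted p = 0.0456). Of 14 tested translation factors, 0 passed (limma), with 2 higher and 1 lower at an unadjusted p of at most 0.05, 2 higher with voom and a median of 0.07. Of 20 mitochondrial aminoacyl-tRNA synthetase and related genes, Lars2 alone passed, from 43.0, 45.4, 58.4 and 40.9 FPKM in Trauma to 40.0, 25.7, 31.8 and 31.0 in Tra_TGF (adjusted p = 0.0253), and the median was -0.02. Of 9 genes for mitochondrial transcription and DNA maintenance, 0 passed, also at an unadjusted p of at most 0.05 and with voom, and the median was 0.10. The differences between these lists and the members were not tested.

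In the same comparison the rRNAs of the particle had positive estimates. mt-Rnr1 had 496, 524, 543 and 500 FPKM in Trauma and 614, 619, 554 and 612 in Tra_TGF, and mt-Rnr2 554, 584, 602 and 555 and 676, 755, 641 and 792. Every Tra_TGF library was above every Trauma library for both, but neither passed after adjustment (log2 fold change 0.22 ± 0.07 SE with adjusted p = 0.0637 and 0.32 ± 0.10 SE with adjusted p = 0.0691). The share of mitochondrial reads given above was also higher in all 4 Tra_TGF than in all 4 Trauma libraries, and its part in these differences was not tested.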

How the data were processed

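The values are gene FPKM as the authors deposited them, from 12 libraries. The authors aligned reads with HISAT2 (2.0.5, build mm10 per the labels' processing notes), counted reads per gene and divided by gene length and depth. Multiplied by gene length, the deposited FPKM gave whole reads (within 0.05) for 100% of values. Each library was scaled by a median-of-ratios factor (0.99529 to 1.00766), 0.1 was added, and genes averaging 0.5 FPKM or more over the libraries (15016) were tested on the log2 scale with limma 3.58.1 in R 4.3.3 (all 12 libraries, eBayes with trend, Benjamini-Hochberg over all genes, threshold 0.05). Folds are on the log2(FPKM + 0.1) scale. The fit was also run on simulated data, which held no trend with GC content or length, so that run does not bear on the single calls here.

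The members and lists were chosen with earlier results of these data known. Named members were those past the threshold (the 5 largest changes where more than 10 passed), the 3 highest and 3 lowest per subunit, those below the filter and those with a special role. Intervals cover the spread between libraries. The GC content of a gene was that of its longest transcript in GENCODE M21. GC correction was a loess per library (span 0.3) on the 14699 genes with a GC value. Shared exons, neighbours and near copies were read from GENCODE M21, in which 54899 of the 55901 deposited genes have the same ID, chromosome, start and end. Alternatives, voom on the recovered reads among them, are given in the closing section.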

Additional observations from a re-analysis of the deposited data

Results flagged for a closer look

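A Dixon test of the highest and lowest library was made in 105 groups of 4 libraries, in which chance flags about 1 group in 20, and 3 groups had a library apart. Mrps23 was highest in Trauma replicate 3 with 2.256 FPKM, where the other 3 libraries had 0.434 to 0.584, and in Tra_TGF replicate 3 with 8.595 FPKM, where the others had 0.562 to 1.60. Mrps26 was lowest in Trauma replicate 1 with 10.49 FPKM, where the others had 11.9 to 12.1, and this library still lay above all 4 Tra_TGF libraries.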

How the results depend on the processing

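Of the 18 members called in Tra_TGF against Trauma, 9 passed under all 25 alternatives (Mrpl14, Mrpl2, Mrpl20, Mrpl34, Mrpl41, Mrpl57, Mrps24, Mrps25 and Mrps26), as did 7 of the 13 called against Control, and no call changed sign. At an unadjusted p, 6 large and 3 small subunit members passed in Trauma against Control, 23 and 16 in Tra_TGF against Trauma, and 21 and 12 in Tra_TGF against Control, counting both directions (the report gives them apart, beside the shares of all genes). In Trauma against Control, 1 small subunit member passed among protein-coding genes alone and under both total-read scalings, which were added after the data were seen, in place of 0. In Tra_TGF against Trauma, length correction left 7 large subunit members in place of 11. In Tra_TGF against Control, 7 small subunit members passed with GC correction or among protein-coding genes alone, and 2 when only these groups were fitted, in place of 4. Leaving out 1 library at a time gave 0 large and 0 to 2 small subunit members in Trauma against Control, 8 to 11 and 3 to 8 in Tra_TGF against Trauma, and 5 to 14 and 2 to 8 in Tra_TGF against Control. The cause was not tested.

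Libraries with the same replicate number deviated together weakly at most (r of -0.0088 to 0.0762 over 12 pairs, -0.0912 to 0.0733 over 36 others). Among same-number pairs r was positive except for replicate 4 of Control and Trauma (-0.0088), while the others went both ways. The numbers were not taken as pairs in the main fit, and a replicate block was fitted as an alternative. With the replicate block, 9 large and 7 small subunit members passed in Tra_TGF against Trauma, and with GC correction and the replicate block 8 and 4. Mrps23 had 14 to 216 reads in the Tra_TGF libraries, whose total reads were nearly equal, and the cause of this spread was not tested.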
